A study of Mus musculus with 8 samples.

Results

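Integrins are the cell's receptors for the extracellular matrix and, on leukocytes, for other cells. Laminins and nidogens are building blocks of the basement membrane to which many integrins bind. The 38 genes described here comprise 26 integrin chains, 10 laminin chains and 2 nidogens, and were found by their symbols in a gene table of 23100 loci. Each of the 38 matched exactly 1 locus. Cuffdiff, the program with which the authors compared the genotypes, tested 24 of the 38, and the other 14, all under 1 FPKM (a fragment count scaled to transcript length and library size) in both groups, carry levels without a test result.

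RNA came from cardiac ventricles, with the atria removed, of mice aged 4.5 months. There were 4 control animals (Ctrl), labelled Sox5fl/fl, Sox6fl/fl and aMHC-Cre neg, and 4 double knockout animals (DKO) with the same floxed alleles and aMHC-Cre pos. Both groups thus carry loxP-flanked Sox5 and Sox6, 2 genes for related transcription factors of the SoxD group, and only DKO carries Cre recombinase, whose αMHC promoter is active in cardiomyocytes. Ctrl animals lack Cre, so Cre itself and the deletion cannot be told apart, and the other cells of the ventricle keep both genes. The series title speaks of pressure overload, but no operation is given for these animals. Sox6 was at 1.69 FPKM in DKO against 3.39 in Ctrl (q = 0.00158 in the authors' deposited table), as the labels have it. Sox5 did not follow the label, at 0.497 FPKM in DKO against 0.369 in Ctrl, and was not tested. None of the 10 cardiomyocyte markers was at 0, and they summed to 64862 FPKM in DKO against 77118 in Ctrl. Each level below is the single FPKM value that the authors deposited for a genotype, with no value per animal, so no spread between animals can be shown and the depth of the libraries is unknown.

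An integrin is a pair of 1 alpha and 1 beta chain, and the pairing decides what it binds. Itgb1, the beta chain of most matrix receptors, pairs with alpha chains for collagen, laminin or fibronectin. Itgb2 pairs with Itgal, Itgam, Itgax or Itgad on leukocytes. Itgav pairs with Itgb3, Itgb5, Itgb6 or Itgb8 and recognises the short RGD peptide motif of fibronectin, vitronectin and the latent form of TGF-beta. A laminin is a trimer of an alpha, a beta and a gamma chain, and in muscle the trimers that contain Lama2 connect the fiber to its surroundings through the integrin chain Itga7 and through dystroglycan.

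A gene counts as called where the authors' deposited table gives a q of at most 0.05. Members called higher in DKO numbered 2, the leukocyte chains Itgam and Itgb2, and 1 was called lower, Itgb6. These 3 are 12.5% of the 24 tested members, where 7.36% of all 12133 tested genes were called. The higher calls are 8.33% of the tested members against 4.30% of all tested genes, and the lower call is 4.17% against 3.06%. The median log2 ratio of DKO over Ctrl was 0.08 over the tested members and -0.0042 over all tested genes. An unadjusted p under 0.05 in the authors' deposited table was found for 11 of the 24 tested members (45.8%) and for 16.5% of all tested genes. Of these 11, 8 had the higher level in DKO (all tested genes, 8.78%) and 3 the higher level in Ctrl (all tested genes, 7.76%). All 3 called members, and no other tested member, had log2 ratios outside the 5th to 95th percentile of all tested genes, which runs from -0.31 to 0.44.

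**Figure D1:**
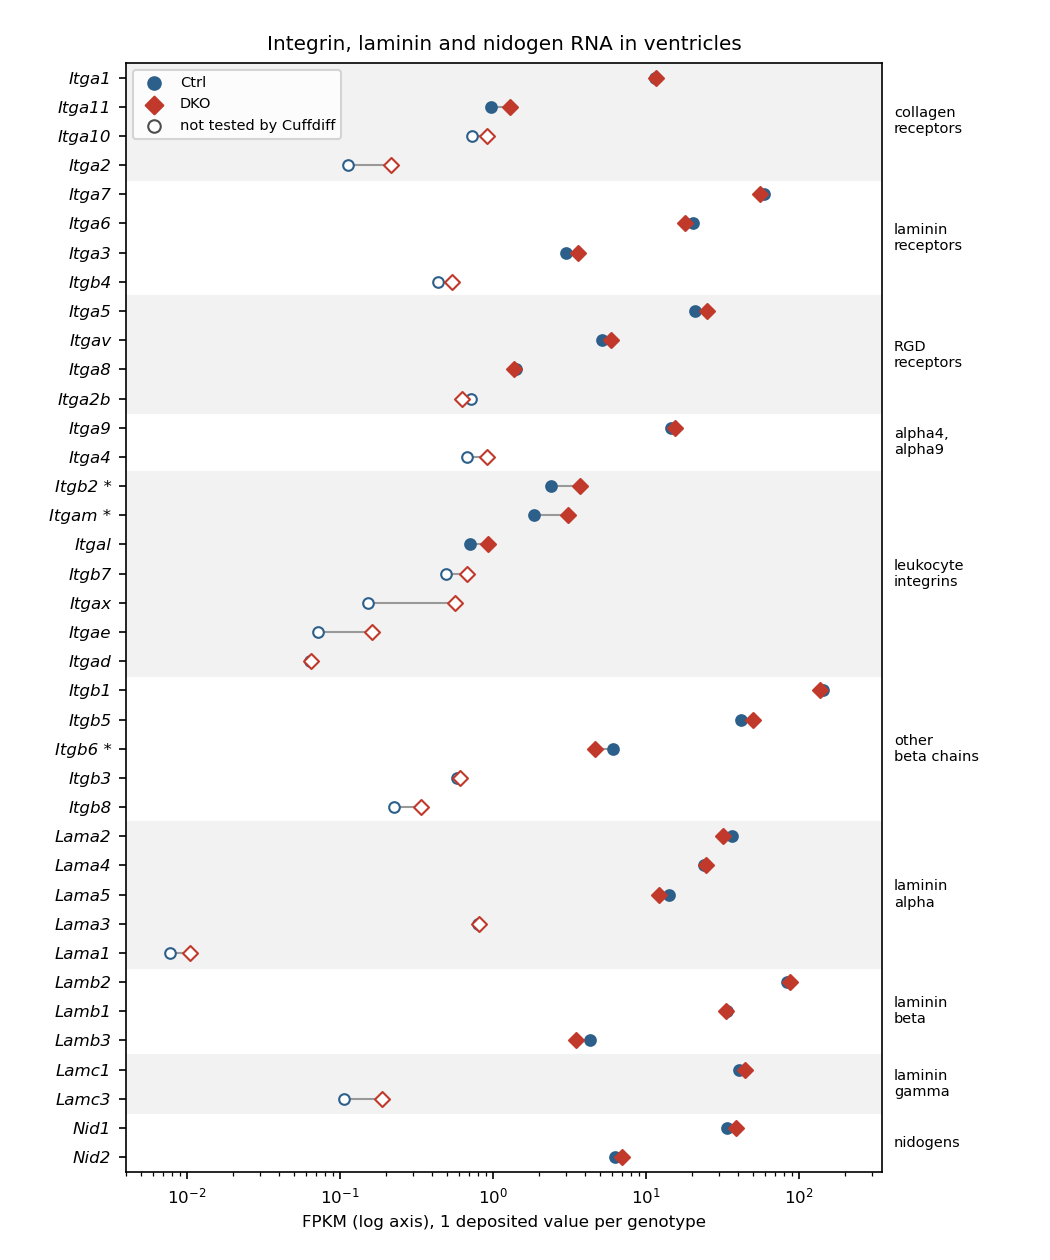
FPKM of the 38 members in Ctrl (circles) and DKO (diamonds) on a log axis, grouped by role, with open symbols for members that Cuffdiff did not test and an asterisk for those called at a q of at most 0.05. Levels run from Lama1, at 0.00773 FPKM in Ctrl, to Itgb1, at 143 FPKM, and the 3 called members are Itgb2, Itgam and Itgb6.

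**Figure D2:**
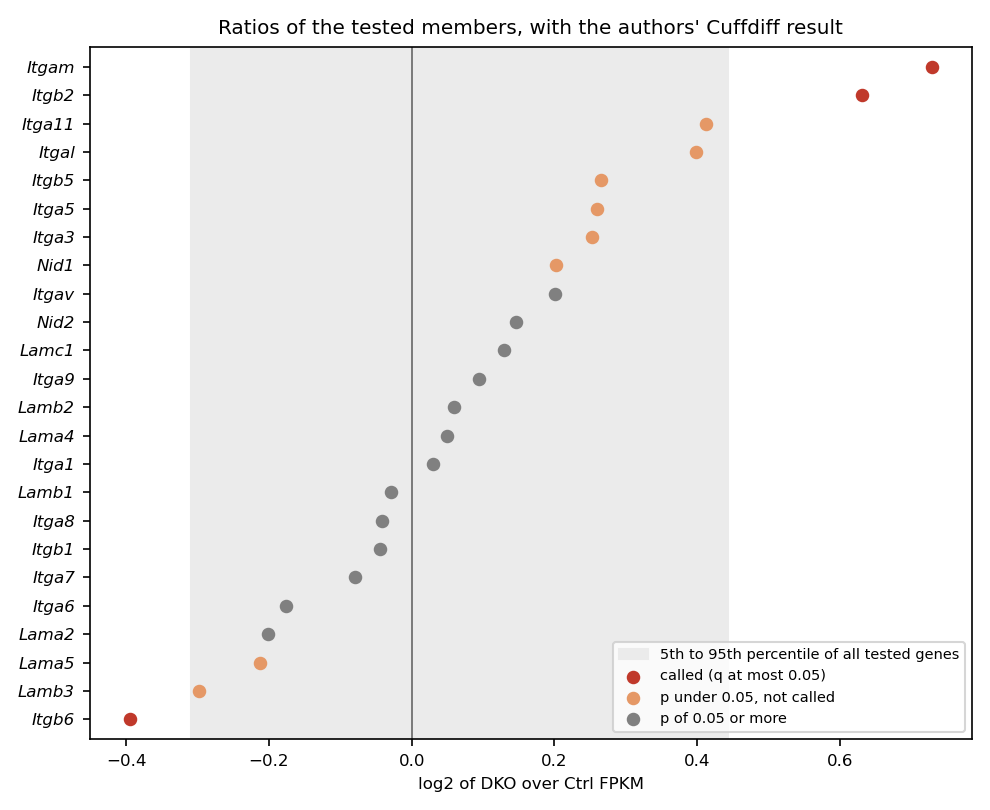
The log2 ratio of DKO over Ctrl FPKM for the 24 tested members, coloured by the result in the authors' table, with the 5th to 95th percentile of all tested genes shaded. Itgam, at 0.73, and Itgb2, at 0.63, lie above the shaded range, and Itgb6, at -0.40, lies below it.

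Of the tested members, the leukocyte chains Itgam and Itgb2 had the highest ratios. Itgam, which encodes the CD11b chain of macrophages, monocytes and neutrophils, was at 3.09 FPKM in DKO against 1.87 in Ctrl. It was 1.66-fold higher in DKO, with a p of 5e-05 and q = 0.00158 in the authors' deposited table. Itgb2, its partner and the shared beta chain of this family, was at 3.72 FPKM in DKO against 2.40 in Ctrl. It was 1.55-fold higher, with the p and q of Itgam in the authors' deposited table, and the p is the smallest given there. Both members of the pair thus lay above Ctrl by similar folds.

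The other leukocyte chains were scarce. Itgal, the alpha chain of lymphocyte function-associated antigen, was at 0.936 FPKM in DKO against 0.710 in Ctrl, and was not called (p of 0.0414 and q of 0.270 in the authors' deposited table). Itgax, which encodes the CD11c chain of dendritic cells and some macrophages, was at 0.566 FPKM in DKO against 0.152 in Ctrl. This ratio of 3.73 was the highest among the 38 members, but Itgax was not tested, and with 1 FPKM added to both values its log2 ratio was 0.44 in place of 1.90. Itgb7, a beta chain of gut-homing lymphocytes, was at 0.673 and 0.494 FPKM, and its partner Itgae at 0.162 and 0.0719 FPKM, neither of them tested. The Itgae locus overlaps that of Gsg2, at 0.344 and 0.140 FPKM, and without strand their reads cannot be told apart where they overlap. Itgad was nearly level at 0.0647 and 0.0639 FPKM. All 7 leukocyte chains therefore had the higher value in DKO, as did 21 of the 31 other members. Of the 3 leukocyte chains tested, 2 were called, and the 7 summed to 9.21 FPKM in DKO against 5.76 in Ctrl.

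Of 11 macrophage and monocyte markers, 10 were called higher (90.9%, against 4.30% of all tested genes), the exception being Cd163. The marker lists were chosen with earlier results of these data known. Summed over the 11, the level was 421 FPKM in DKO against 273 in Ctrl, 1.54 times as high in DKO. None of these 11 was at 0 in either group. All 8 lymphocyte markers had a higher value in DKO, with sums of 4.78 and 2.59 FPKM, but 7 were not tested and none was called. The 6 neutrophil markers summed to 6.61 and 5.67 FPKM with none called and Camp listed at 0 in Ctrl, and 4 of the 6 were not tested. The 5 dendritic cell markers other than Itgae summed to 9.92 FPKM in Ctrl and 1.11 times that in DKO, with none of the 2 tested called. Most of that sum was Zbtb46, at 7.96 FPKM in DKO against 7.89 in Ctrl. The other tested marker, Clec9a, was at 1.51 FPKM in DKO against 1.52 in Ctrl. Those not tested were Cd209a at 0.921 against 0.172, Xcr1 at 0.412 against 0.322 and Flt3 at 0.159 against 0.0138. The part of these cell types in the integrin values was not tested, and in RNA from whole ventricles more cells of a type and more RNA per cell cannot be told apart. Outside the leukocyte chains, none of 21 tested members was called higher by Cuffdiff, where 4.30% of all tested genes were. At an unadjusted p under 0.05 in Cuffdiff, 5 of these 21 were higher, where 8.78% of all tested genes were.

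Itgal, Itgam, Itgax and Itgad lie on chromosome 7. In the mm9 build of the files, Itgam spans 135206154 to 135262005, Itgax 135273082 to 135294171 and Itgad 135317460 to 135349880, with 11.1 kb and 23.3 kb between neighbours and no other locus between them. Itgal lies 728 kb before Itgam, with 38 other loci between. Itgb2, on chromosome 10 at 76993093 to 77028419, is not part of the cluster. Of the 3 adjacent genes, Itgam and Itgax had ratios of 1.66 and 3.73, and Itgad had 1.01. The locus of Itgad overlaps that of Cox6a2, a mitochondrial gene at 2091 FPKM in DKO against 2565 in Ctrl, so the small Itgad value may be uncertain. Whether the exons of these 2 genes overlap was not checked. To set the promoters of these neighbours side by side, the 250 bases before the start of Itgam and of Itgax are printed 5′ to 3′ from RefSeq in build GRCm38.p6, at chr7:128062390-128062639 and chr7:128129300-128129549 on the plus strand. Capitals mark GAGGAA, 1 of the sequences bound by PU.1 and related ETS factors of myeloid cells, and AACAAT, a core of SOX factor sites, on either strand.
Itgam: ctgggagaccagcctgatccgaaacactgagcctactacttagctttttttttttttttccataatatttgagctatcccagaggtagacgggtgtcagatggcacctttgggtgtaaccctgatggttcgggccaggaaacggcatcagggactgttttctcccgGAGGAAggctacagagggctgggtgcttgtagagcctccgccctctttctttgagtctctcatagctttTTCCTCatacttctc
Itgax: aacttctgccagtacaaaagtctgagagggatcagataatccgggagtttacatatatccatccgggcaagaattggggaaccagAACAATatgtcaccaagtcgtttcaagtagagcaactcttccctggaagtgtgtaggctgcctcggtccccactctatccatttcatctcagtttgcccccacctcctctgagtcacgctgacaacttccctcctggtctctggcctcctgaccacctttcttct
Itgam held 2 matches of GAGGAA and none of AACAAT, and Itgax held 1 match of AACAAT and none of GAGGAA. Windows of the same length hold GAGGAA in 23.3% and AACAAT in 9.42% of the 32851 RefSeq promoters searched, so a match describes the sequence and does not show binding. A window without a match may hold other sites of these factors, which were not searched. The table held promoters for 24 of the 38 members, with GAGGAA in 14 and AACAAT in 3, namely Itga8, Itgax and Itgb6. A member was counted where any of its promoters held the letters, so these counts cannot be set beside the shares per promoter. Itgb6 was counted for both only through its start with almost no RNA, printed below.

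Itgb6 was the only member called lower in DKO. Its protein pairs with Itgav, is known best from epithelia, and activates latent TGF-beta. It was at 4.65 FPKM in DKO against 6.12 in Ctrl, 1.32-fold lower in DKO, with a p of 5.5e-04 and q = 0.0120 in the authors' deposited table. At a stricter q under 0.01 it would not be called. The alpha partner Itgav was not called and had the higher value in DKO, at 5.93 FPKM in DKO against 5.16 in Ctrl (q = 0.340 in the authors' deposited table).

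Of the 2 start sites listed for Itgb6, 1 carried nearly all of its RNA. The transcript NM_001159564, of 4894 bases, was at 4.65 FPKM in DKO against 6.12 in Ctrl, 99.97% of the gene in Ctrl and more in DKO, and was called lower as an isoform (q = 0.0250 in the authors' deposited table). The transcript NM_021359, of 4788 bases, was at 3.12e-04 and 0.00157 FPKM and was not tested. In GENCODE on GRCm38 the 2 transcripts start 48.9 kb apart. The 250 bases before each RefSeq start are printed to set the used beside the unused promoter, both on the minus strand of GRCm38.p6, at chr2:60722604-60722853 for the start nearest NM_001159564 and chr2:60673694-60673943 for that nearest NM_021359, with capitals as above.
Itgb6, used start: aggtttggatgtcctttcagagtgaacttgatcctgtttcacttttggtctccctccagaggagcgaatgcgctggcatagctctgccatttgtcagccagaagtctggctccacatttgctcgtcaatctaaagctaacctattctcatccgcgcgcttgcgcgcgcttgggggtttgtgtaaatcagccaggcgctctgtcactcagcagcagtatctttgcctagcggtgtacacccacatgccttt
Itgb6, start with almost no RNA: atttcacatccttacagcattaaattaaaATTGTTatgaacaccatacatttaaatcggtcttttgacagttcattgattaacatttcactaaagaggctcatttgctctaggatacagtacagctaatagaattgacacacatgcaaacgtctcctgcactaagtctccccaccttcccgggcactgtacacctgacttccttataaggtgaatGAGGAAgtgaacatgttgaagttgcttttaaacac
The used promoter held neither set of letters, and the other held 1 match of each. The gene itself lies on chromosome 2 at 60436349 to 60560660 in mm9.

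The remaining beta chains differed widely in level. Itgb1 was the most abundant member, at 139 FPKM in DKO against 143 in Ctrl (p of 0.633 in the authors' deposited table). Itgb5, which forms a vitronectin receptor with Itgav, was at 50.6 FPKM in DKO against 42.1 in Ctrl. This was 1.20-fold higher and not called, with a p of 0.0064 and q = 0.0743 in the authors' deposited table, the lowest q among the members that missed the threshold. Itgb3, the beta chain of platelets and of activated vascular cells, was at 0.612 and 0.588 FPKM, Itgb4, the hemidesmosome chain that pairs with Itga6, at 0.544 and 0.440 FPKM, and Itgb8 at 0.340 and 0.228 FPKM, and none of these was tested. The Itgb4 value may be uncertain, since its locus overlaps that of Galk1, at 7.14 and 6.38 FPKM. Whether their exons overlap was not checked. Over the 8 beta chains, Itgb1 made up 69.4% of the summed FPKM in DKO and 73.2% in Ctrl, and Itgb5 made up 25.3% and 21.5%. Itgb6 made up 2.33% and 3.13%. These shares have no error per animal and were not tested.

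Itga7, the laminin-binding chain of skeletal and heart muscle, was the most abundant alpha chain, at 56.0 FPKM in DKO against 59.2 in Ctrl (q = 0.824 in the authors' deposited table). Itga6, a laminin receptor of endothelial, epithelial and other cells, was at 18.1 FPKM in DKO against 20.4 in Ctrl (p of 0.0682 in the authors' deposited table). Itga3, another laminin receptor, was at 3.60 and 3.02 FPKM, with a p of 0.0482 and q = 0.295 in the authors' deposited table. The 4 laminin-binding chains, Itgb4 included, summed to 78.2 FPKM in DKO against 83.0 in Ctrl, and none of the 3 tested was called. Itga7 made up 38.4% of the alpha chain FPKM in DKO and 41.6% in Ctrl.

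Of the alpha chains that bind collagen, Itga1 was by far the highest, at 11.7 FPKM in DKO against 11.4 in Ctrl (p of 0.778 in the authors' deposited table). Its locus overlaps that of Pelo, at 12.1 and 11.6 FPKM. Itga11, a receptor of fibroblasts for fibrillar collagen, was at 1.29 and 0.968 FPKM, 1.33-fold higher, with a p of 0.0212 and q = 0.174 in the authors' deposited table, and so was not called. Itga10, a collagen receptor of cartilage, was at 0.914 and 0.730 FPKM, and Itga2, the collagen receptor of platelets and epithelia, at 0.216 and 0.113 FPKM. Neither was tested.

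The alpha chains for RGD ligands were led by Itga5, the fibronectin receptor, at 25.0 FPKM in DKO against 20.9 in Ctrl. It was 1.20-fold higher and not called, with a p of 0.01 and q = 0.103 in the authors' deposited table. Itga8, a receptor for nephronectin and fibronectin, was at 1.38 and 1.42 FPKM, and Itga2b, the platelet fibrinogen receptor, was at 0.631 and 0.723 FPKM without a test. The platelet and megakaryocyte markers other than Itga2b summed to 26.4 FPKM in Ctrl and 1.14 times that in DKO, with none of the 3 tested called. Itga9, which binds tenascin, osteopontin and Vcam1, was at 15.5 and 14.6 FPKM (p of 0.323 in the authors' deposited table), and Itga4, the receptor of leukocytes for Vcam1 and fibronectin, was at 0.918 and 0.675 FPKM and not tested. Itga4 overlaps Cerkl, at 0.445 and 0.244 FPKM. As a group, Itga5, Itgav, Itga8 and Itga2b summed to 32.9 FPKM in DKO against 28.2 in Ctrl.

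Laminin and nidogen genes held no called gene among 9 tested, where 7.36% of all tested genes were called. At an unadjusted p under 0.05 in Cuffdiff, 1 was higher and 2 were lower, 33.3% against 16.5% of all tested genes. Their median log2 ratio was 0.05. Summed over the 10 laminin chains, the level was 239 FPKM in both genotypes. Among the alpha chains, Lama2, the chain of muscle whose loss causes a congenital muscular dystrophy, was at 32.0 FPKM in DKO against 36.7 in Ctrl (p of 0.0857 in the authors' deposited table). Lama5, a chain of vessels and epithelia, was at 12.1 FPKM in DKO against 14.1 in Ctrl, with a p of 0.0196 and q = 0.164 in the authors' deposited table. Lama4, a chain of endothelial and muscle basement membranes, was at 24.7 and 23.9 FPKM. Lama3, of epithelia, stood at 0.807 and 0.804 FPKM and Lama1, of early embryos, at 0.0105 and 0.00773 FPKM, neither tested. Lama2 made up 45.9% of the laminin alpha FPKM in DKO and 48.6% in Ctrl, and Lama4 made up 35.5% and 31.6%, without a test of these shares.

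Lama2 has the longest locus of the members, 636 kb on chromosome 10. In all, 92 tested genes spanned over 500 kb, and 14 of them (15.2%) were called lower in DKO, against 3.06% of all tested genes. Higher calls among these long genes were not counted, and a part of locus length was not tested. Lama2, with a log2 ratio of -0.20, was not among the called.

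Lamb2, the main beta chain of mature muscle, vessel and nerve basement membranes, was the most abundant laminin chain at 87.7 FPKM in DKO against 84.2 in Ctrl (p of 0.511 in the authors' deposited table). Lamb1 was at 33.4 and 34.1 FPKM. Lamb3, which forms the epithelial laminin together with Lama3, was at 3.52 FPKM in DKO against 4.33 in Ctrl. This was 1.23-fold lower and not called, with a p of 0.0199 and q = 0.166 in the authors' deposited table. Nearly all gamma chain RNA was Lamc1, at 44.3 and 40.5 FPKM (p of 0.153 in the authors' deposited table), and Lamc3 was at 0.189 and 0.106 FPKM without a test. By family, the beta chains summed to 125 FPKM in DKO against 123 in Ctrl, the alpha chains to 69.6 and 75.5, and the gamma chains to 44.5 and 40.6.

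Nidogens link laminin to the collagen IV network. Nid1 was at 39.1 FPKM in DKO against 33.9 in Ctrl, 1.15-fold higher, with a p of 0.0272 and q = 0.207 in the authors' deposited table. Nid2, whose locus overlaps that of 2700060E02Rik at 52.4 and 51.2 FPKM, was at 6.97 and 6.30 FPKM (p of 0.464 in the authors' deposited table). Neither nidogen was called.

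**Figure D3:**
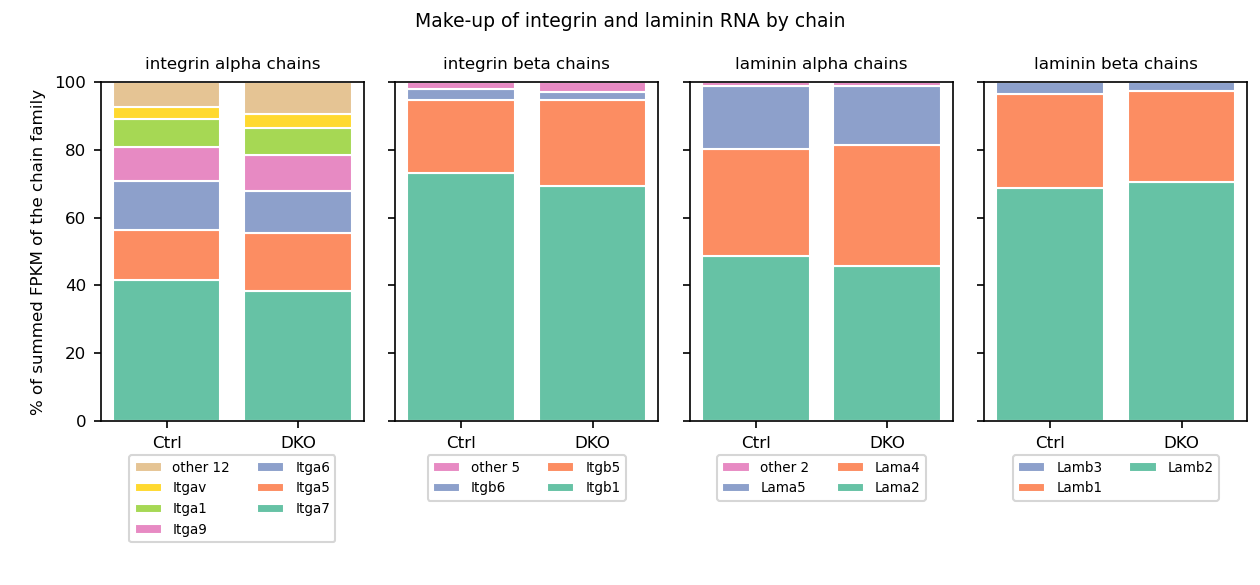
Share of each chain in the summed FPKM of its family, in percent, for Ctrl and DKO, with chains under 3% in both groups joined as other. Itgb1 and Itgb5 make up most of the beta chain RNA, and the share of Itgb5 is 21.5% in Ctrl and 25.3% in DKO.

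Other genes of adhesion were taken from lists by role. Basement membrane components other than members had 2 of 17 tested called higher (11.8%, against 4.30% of all tested genes) and none lower. They were Sparc, a collagen-binding matrix protein (254 against 194 FPKM), and Col4a3, a collagen IV chain (1.20 against 0.866 FPKM). The median log2 ratio of the tested components was 0.09. The most abundant of those not called were Egfl7, at 84.9 FPKM in DKO against 90.6 in Ctrl, and Col4a1, at 85.1 and 80.5. Laminin receptors outside the integrins, in the main the dystrophin and dystroglycan complex, had 2 of 13 called lower (15.4%, against 3.06% of all tested genes). None of them was called higher, and their median log2 ratio was -0.12. The called genes were Dmd (9.41 against 29.8 FPKM) and Sgca (103 against 128 FPKM). Dag1, which encodes dystroglycan, was at 125 and 129 FPKM and was not called.

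Several ligands of these integrins were called higher. On the list of matrix ligands of RGD, alpha4 and alpha9 integrins, 9 of 18 tested were called higher and none lower. This share of 50.0% stood against 4.30% of all tested genes, and the median log2 ratio was 0.39. The 9 included the tenascin gene Tnc (1.15 against 0.185 FPKM), Postn (33.5 against 15.4), Fn1, which encodes fibronectin (11.8 against 7.96), and Tgfb3, whose latent form RGD integrins bind. Tgfb2, a relative of Tgfb3 on this list, was called too. Ctgf, Thbs1, Thbs4 and Emilin1 were the other 4. Spp1, the gene of osteopontin, was at 1.62 against 0.448 FPKM and was not called (q = 0.243 in the authors' deposited table), as were Mfge8 at 91.7 against 79.6 and Cyr61 at 82.2 against 72.5. Collagens bound by integrins were called higher in 6 of 9 (66.7%, against 4.30% of all tested genes), led by Col3a1 (78.6 against 51.9 FPKM), Col1a2 and Col5a2. Col6a2 at 32.3 against 27.4 FPKM and Col5a1 at 9.56 against 8.72 were not called. These lists were drawn up with results of these samples known, so their counts are no independent support. The 10 fibroblast markers, 7 of them called higher (70.0%, against 4.30% of all tested genes), summed to 1365 FPKM in DKO against 1102 in Ctrl. Their part in the values of Itga5, Itga11, Itgb5 and Nid1 was not tested.

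Cellular ligands of leukocyte integrins had 2 of 8 tested called higher, 25.0% against 4.30% of all tested genes. These were C3, whose fragments Itgam and Itgax bind (42.0 against 25.1 FPKM), and Vcam1, a ligand of Itga4 and Itga9 (8.17 against 6.31 FPKM). The Itgal ligands Icam1 and Icam2 were not called, at 7.36 against 6.21 and 23.5 against 25.6 FPKM, nor were Jam2 and Esam. Of the adaptors and kinases inside the cell, 3 of 34 tested (8.82%, against 4.30% of all tested genes) were called higher and none lower. They were Itgb1bp3, a muscle protein that binds the Itgb1 tail (20.1 against 10.1 FPKM), the focal adhesion kinase relative Ptk2b (3.92 against 2.29 FPKM) and Apbb1ip, an activator of integrins in blood cells (2.79 against 1.91 FPKM). Ilk, the integrin-linked kinase, at 54.0 against 54.8 FPKM, and Vcl, which encodes vinculin, at 57.5 against 58.2, were not called. The most abundant genes of this list, Actn2 at 782 against 889 FPKM and Itgb1bp2 at 217 against 255, were not called. Of 12 surface partners, 2 were called higher (16.7%, against 4.30% of all tested genes) and none lower. The 2 were the tetraspanins Cd63 (115 against 89.8 FPKM) and Cd151 (213 against 176 FPKM), the latter a partner of laminin-binding integrins. Cd36 and Bsg were not called. Endothelial markers, none of 10 called by Cuffdiff, had a median log2 ratio of -0.07, and cardiomyocyte markers, none of 10 called, had -0.21. At an unadjusted p under 0.05 in Cuffdiff, 1 endothelial and 4 cardiomyocyte markers were lower, where 7.76% of all tested genes were.

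**Figure D4:**
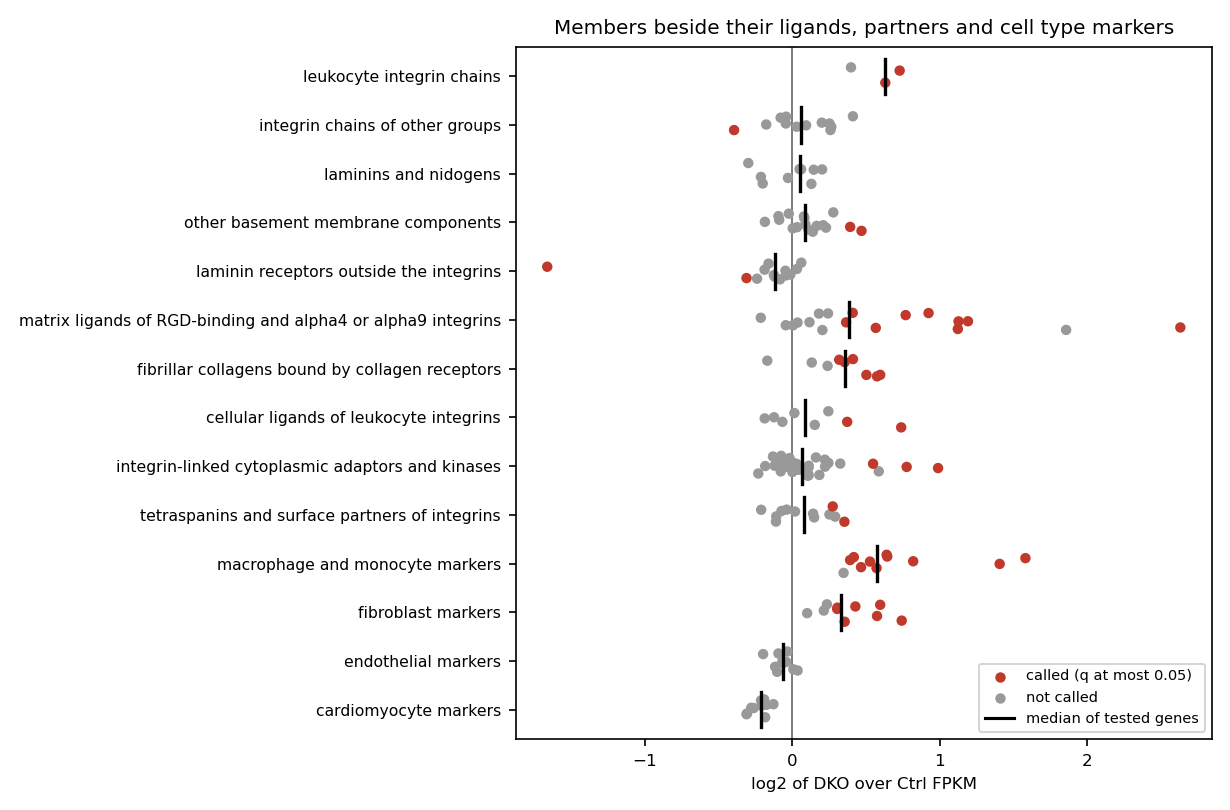
The log2 ratio of DKO over Ctrl FPKM for tested members, for lists of ligands and partners, and for markers of 4 cell types, with called genes in red and a bar at each median. The median is 0.63 for the leukocyte integrin chains, of which only 3 were tested, 0.57 for the macrophage and monocyte markers and 0.05 for the laminins and nidogens.

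Below the gene level, the authors' tables list 73 isoforms and 52 start site groups of the 38 members. Of 45 tested isoforms, 3 were called, those of Itgam, Itgb2 and Itgb6 that carry most of their genes' RNA, in the direction of the gene. Higher isoforms were 1.90% and lower ones 1.12% of all tested isoforms. Itgam had its main isoform, of 4679 bases, at 2.74 FPKM in DKO against 1.71 in Ctrl (q = 0.0301 in the authors' deposited table), and a second of 4682 bases at 0.347 and 0.153 FPKM that was not tested. Itgb2 had a single isoform. Of 37 tested start site groups, 3 were called, 1 each of Itgam, Itgb2 and Itgb6, where 2.95% of all tested groups were higher and 1.99% lower. Of 24 tested coding sequences, 3 were called, again 1 each of these genes, where 2.98% of all were higher and 1.66% lower.

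Several members split their RNA over start sites without a called change. Itgb1 had a pair of start site groups of nearly equal level, at 69.5 and 69.2 FPKM in DKO and at 75.7 and 67.2 in Ctrl. Itga9 had 3, of which the least abundant, that of NM_001113514, was at 1.54 FPKM in DKO against 0.410 in Ctrl, with a p of 0.0563 and q = 0.393 in the authors' deposited table. Lamb1 had a minor start site group at 1.33 and 3.39 FPKM (p of 0.123 in the authors' deposited table). Lama2 was spread over 7 isoforms and 3 start site groups, all 3 with the lower value in DKO and none called. Its full-length transcript of 9712 bases was at 4.77 and 4.97 FPKM, 14.9% and 13.5% of the gene.

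Lama5 had isoforms of opposite direction at a single start site. A spliced form of 11294 bases was at 1.29 FPKM in DKO against 4.31 in Ctrl (p of 0.0429 and q of 0.451 in the authors' deposited table), and another of 11382 bases was at 1.18 and 0.0188 FPKM (p of 0.258 in the authors' deposited table). The reference transcript of 11388 bases was at 4.02 and 3.94 FPKM, beside a log2 ratio of -0.21 for the whole gene. Nid1 likewise had a minor form of 5999 bases at 2.39 and 0.0214 FPKM beside a main form of 6046 bases at 36.7 and 33.9 FPKM, and neither was called. Isoforms this alike are separated by a model of shared reads, and their single values are less certain than the gene totals.

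**Figure D5:**
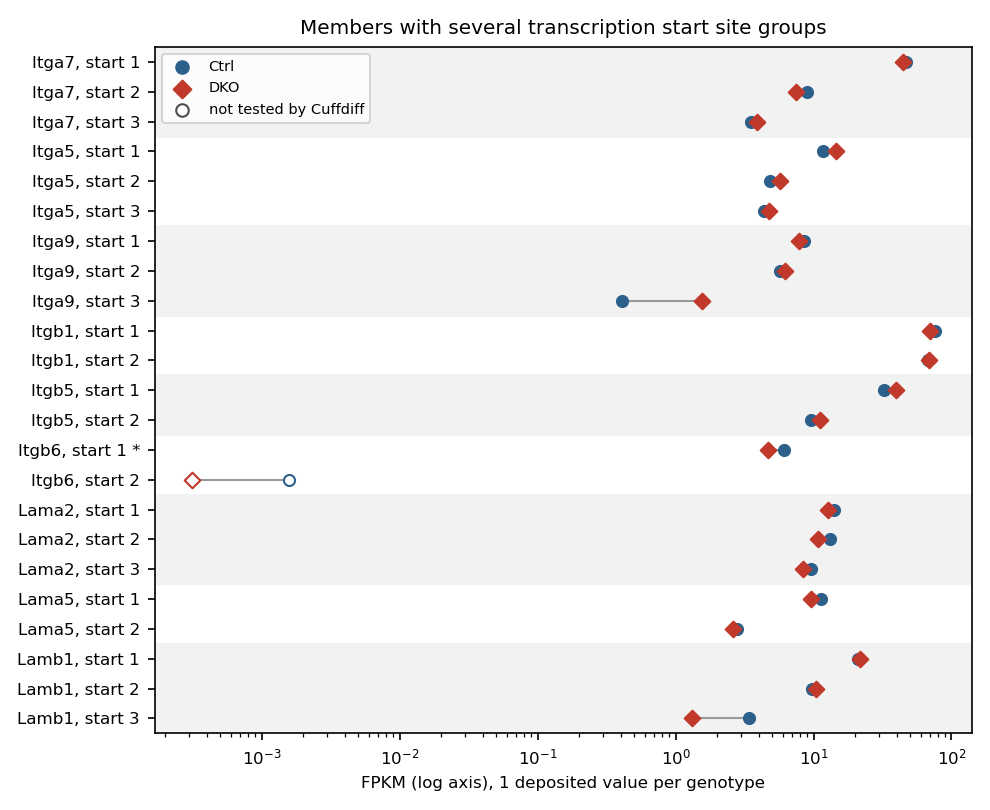
FPKM of each transcription start site group, numbered by level in Ctrl, for the 9 members that have several, on a log axis with Ctrl as circles and DKO as diamonds and open symbols where Cuffdiff ran no test. The asterisk marks the only called group shown, the first of Itgb6, while its second group lies at 3.12e-04 FPKM in DKO against 0.00157 in Ctrl.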

How the data were processed

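RNA-seq of ventricles from 4 DKO and 4 Ctrl mice was analysed. The authors used TopHat2 2.0.9, Cufflinks 2.1.1 and Cuffdiff 2.1.1 with build mm9, per the submitters' processing notes; the sources used here do not give their settings or annotation. In the deposited tables the authors give 1 FPKM value per genotype for genes, isoforms, start site groups and coding sequences, per the file headers. The p-values and q-values are those of the authors' Cuffdiff comparison, per the file headers, and recomputing the q-values by the Benjamini-Hochberg method on the 12133 tested genes gave the same values to within 5.18e-07. Transcript length, another deposited column, is in bases. Depth is unknown, so no interval was computed.

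Members were matched on the gene symbol, and the log2 ratio of DKO over Ctrl was computed from FPKM with no pseudocount. Genes with q up to 0.05 were called. No own test was possible with 1 value per genotype. How the 4 animals of a group entered the authors' test is not stated there. The library kit does not mark strand, so overlapping genes on opposite strands cannot be separated. The members and lists were chosen with earlier results of these data known. By rule, the text names the tested members and, of each partner list, the called genes and the 2 uncalled ones of highest FPKM. One gene that this rule would name is not reported here. The 14 untested members, named so that each is accounted for, were named after their values were seen. So were Spp1, Icam1, Icam2, Ilk, Vcl, Cd163, Camp, Zbtb46, Clec9a, Cd209a, Flt3, Xcr1 and the genes with overlapping loci. Adgre1 and Tns2 were matched as Emr1 and Tenc1. Promoters came from RefSeq (GRCm38.p6). The counting of calls was tested on simulated data. Python 3.11.15, pandas 2.3.3, numpy 2.4.6 and matplotlib 3.10.9 were used.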

Additional observations from a re-analysis of the deposited data

How the results depend on the processing

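The 2 higher calls, Itgam and Itgb2, were 2 again at a q under 0.01, with a fold of at least 1.3, with both groups at 1 FPKM or more, and at the isoform, start site and coding sequence levels. The 1 lower call became 0 at a q under 0.01 and was 1 in the other settings. The median log2 ratio of the tested members, 0.0768, was 0.0735 with log2(FPKM + 1), 0.0672 with the isoform of highest mean FPKM and 0.0547 with both groups at 1 FPKM or more. In 2 alternatives chosen after seeing the data it was 0.173 over all 38 members and 0.0497 without the leukocyte chains. Directions turned for Itga9 with its main isoform (-0.12), for Itgb1 with coding sequences (0.0384), and for Lama5 (0.0288 in both) and Lamb1 (0.0746 in both) with the main isoform and with coding sequences, none of which was called; the isoform and coding values cover only part of these genes' transcripts. A pseudocount cannot turn a direction and always brings a ratio nearer to 0, and rescaling to a median of 0 takes the same median log2 ratio of -0.0042 from every gene, so neither bears on whether directions are stable. No paired analysis was possible because the deposited tables hold 1 value per genotype, and for the same reason no replicate could be left out. Itgax and the other 13 untested members lie at levels where Cuffdiff gave no result, so their ratios have no error.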
